A study of Homo sapiens with 24 samples.

Results

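The 10 transcription factor genes described here are those of the luminal breast lineage: ESR1, GATA3, FOXA1, TFAP2A, TFAP2C, SPDEF, XBP1, ELF3, TBX3 and EHF. They were chosen by name, for known roles and with earlier results of these data known, out of the 60605 genes in the count table, and all 10 passed the filter on low counts. Nascent transcription was measured by PRO-seq, which sequences the 3′ ends of RNA still held by engaged RNA polymerase. A gene's count thus follows the engaged polymerase on the gene and not the store of finished mRNA. The cells were T47D, an estrogen receptor-positive line of luminal breast cancer. Their own TRPS1 gene was edited so that the protein carries a tag for induced degradation. Clones 28, 35 and 39 each received vehicle (DMSO, 0.1% by volume) or 100 nM dTAG-13, a small molecule that brings the tagged protein to an E3 ubiquitin ligase, for 90 min. That gives 6 groups of 4 replicates, 24 libraries in all, and 12 pairs of libraries that share a clone and a replicate number. The tag is present in the DMSO groups too, and each group is a single clone, in which some genomic copies of TRPS1 carry a disrupting edit and only the tagged protein is made. No untagged parental cells are among these libraries, so an effect of dTAG-13 itself cannot be told apart from an effect of losing TRPS1. The question asked of each gene was whether its transcription changes within 90 min of adding the degrader, and whether that change is larger than the spread between replicates, clones and collection times.

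The 10 genes are taken here as a network of transcription factors of luminal cells, a grouping that was not tested. ESR1 encodes estrogen receptor alpha, the nuclear receptor that binds estradiol. GATA3 binds GATA sites, and FOXA1 is a forkhead pioneer factor that opens chromatin for the receptor. TFAP2A and TFAP2C encode AP-2 alpha and AP-2 gamma, paralogs that bind the same GC-rich site. SPDEF, ELF3 and EHF are epithelium-restricted members of the ETS family. XBP1 encodes a bZIP factor of the unfolded protein response that is also a known estrogen target, and TBX3 encodes a T-box repressor of mammary development. The tagged protein, TRPS1, belongs to the same family as GATA3 but acts as a repressor.

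Sequence upstream of the start sites is shown for EHF and SPDEF, called after dTAG-13, and for TFAP2A, among the 5 members called between clones. ELF3 and GATA3, also called between clones, have windows that are not shown. Promoter windows from RefSeq (GRCh38.p14) were matched for 8 of the 10 genes, 21 windows in all, since several genes have more than 1 start site. TFAP2C and TBX3 are named only. Each sequence below is given 5′ to 3′ on the gene's own strand and leaves out every annotated exon base. Capitals mark matches, on either strand, to short words for factors of this network: the GATA words AGATAA, also ending in G (AGATAG), and their versions that begin with T (TGATAA as well as TGATAG), the estrogen receptor half-site AGGTCA, the forkhead word TGTTTAC with its variant TGTTTGC, the AP-2 word GCCNNNGGC, the ETS word AGGAAG, the XBP1 word GACGTG and the T-box word AGGTGT. No capital stretch below belongs to more than 1 motif.
EHF, RefSeq window 1, chr11:34624007-34624256, plus strand: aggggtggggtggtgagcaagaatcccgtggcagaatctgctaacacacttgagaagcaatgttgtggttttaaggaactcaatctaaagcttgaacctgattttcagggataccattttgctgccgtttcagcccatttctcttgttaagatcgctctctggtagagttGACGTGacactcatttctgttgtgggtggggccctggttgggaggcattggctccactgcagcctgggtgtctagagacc
EHF, RefSeq window 2, chr11:34632316-34632463, plus strand: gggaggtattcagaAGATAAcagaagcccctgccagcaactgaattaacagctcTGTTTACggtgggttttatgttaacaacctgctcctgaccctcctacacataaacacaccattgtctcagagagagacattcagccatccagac
SPDEF, chr6:34556334-34556579, minus strand: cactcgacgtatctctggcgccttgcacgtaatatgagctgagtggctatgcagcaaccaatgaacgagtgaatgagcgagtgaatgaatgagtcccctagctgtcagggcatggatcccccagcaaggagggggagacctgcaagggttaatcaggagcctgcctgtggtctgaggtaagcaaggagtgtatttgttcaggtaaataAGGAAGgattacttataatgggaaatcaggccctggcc
TFAP2A, chr6:10419660-10419909, minus strand: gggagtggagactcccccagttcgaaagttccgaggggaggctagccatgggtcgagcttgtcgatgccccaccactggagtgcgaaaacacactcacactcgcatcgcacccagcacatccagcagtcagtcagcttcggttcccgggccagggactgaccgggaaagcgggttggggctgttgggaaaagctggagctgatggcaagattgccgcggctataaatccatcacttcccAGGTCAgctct
Both EHF windows lie inside the gene as GENCODE 44 places it, which begins at 34621093. In EHF window 1 the capitals are an XBP1 word on the gene's strand. In the part of window 2 shown, which ends at -103 from the start site, they are a GATA word and a forkhead word. The full window also has an XBP1 word on the other strand at -12, which is not shown. SPDEF has an ETS word on its own strand, and the TFAP2A window has an estrogen receptor half-site close to the start. TFAP2A has another window, at a start site within the gene, which holds 3 ETS words and is not shown. These words are short and common. Over 35116 RefSeq windows of 300 bases (250 before to 50 after the start), a GATA word occurs in 8769 windows, the ETS word in 33.6%, the AP-2 word in 23.2%, the half-site in 13.8%, the T-box word in 11.4%, the XBP1 word in 7.81% and a forkhead word in 7.17%. Of the 21 member windows, the ETS word occurs in 7, a share near that over all windows. A forkhead word occurs in 3 of the 21 (1 each of EHF, FOXA1 and GATA3), and a GATA word in 2 (1 each of EHF and ESR1). The half-site occurs in 1 of the 21, the TFAP2A window shown. A match describes the letters and is not a measured binding site.

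The libraries held 3226718 to 9575803 reads in genes, with a median of 5042122, so even TBX3, the weakest member, had a median count of 115.5. The labelled cell type was checked against its markers. All 20 luminal marker genes were counted at a median of 10 or more reads. Of 12 basal and myoepithelial markers, 5 (KRT5, KRT14, KRT17, SOX10 and SNAI2) had a median count under 3, and the other 7 (TP63, FOXC1, ID4, ACTA2, MYH11, OXTR and EGFR) reached 10 or more. The summed level of the 12 was 53.9 to 74.9 CPM (counts scaled to a common library total) and that of the luminal list 6917 to 9847 CPM, sums over genes of unequal number and length. Per kb of gene span the basal markers had medians of 0.00 to 1.78 CPM and the luminal markers of 0.31 (NAT1) to 67.2 (KRT19), so the lists overlapped there, with TFF3, EPCAM, SLC39A6, TFF1, SCUBE2 and NAT1 below the basal marker FOXC1 (1.78). TRPS1, the tagged gene, was transcribed in every library. It was at 5145 to 7282 CPM in Clone 28 DMSO and 6259 to 8190 in Clone 28 dTAG-13, at 5536 to 7776 and 6551 to 8528 in Clone 35, and at 6298 to 8682 and 7405 to 9229 in Clone 39. A transcription level is no check of protein loss, so these data do not test the depletion. Among the 12 pairs the treated library had the larger TRPS1 value in 12, and the fitted change was 0.19 on the log2 scale (SE 0.083, adjusted p = 0.734, edgeR quasi-likelihood test, called at an adjusted p below 0.1). With each pair kept as a replicate block the change was 0.20 (adjusted p = 0.00066).

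Levels of the members were compared with each other only per length, as CPM per kb of gene span, since polymerase is counted over introns as well as exons. XBP1 was highest at a median of 32.9 CPM per kb (range 27.8 to 39.8 over 24 libraries), then GATA3 at 26.7 (23.9 to 32.8), FOXA1 at 22.7 (19.3 to 27.8) and TFAP2C at 19.1 (12.8 to 23.4). A middle set followed, with EHF at 9.30, TFAP2A at 8.19 and ELF3 at 8.00. SPDEF was at 5.18, ESR1 at 3.36 and TBX3 at 1.65. The top 4 genes overlapped their neighbours in range, though within a library XBP1 exceeded GATA3 in 24 of 24, GATA3 exceeded FOXA1 in 21 and FOXA1 exceeded TFAP2C in 19. EHF, TFAP2A and ELF3 could not be ordered, because EHF exceeded TFAP2A in only 16 libraries and TFAP2A exceeded ELF3 in only 11. SPDEF, ESR1 and TBX3 stood below all others with no overlap between neighbours. XBP1, FOXA1 and TFAP2C span only 6.043, 6.508 and 9.978 kb, while ESR1 spans 472.929 kb. Not every place followed span, as ELF3 (9.239 kb) was in the middle set and GATA3 (29.821 kb) among the top 4. The part of gene length in this order was not tested.

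**Figure D1:**
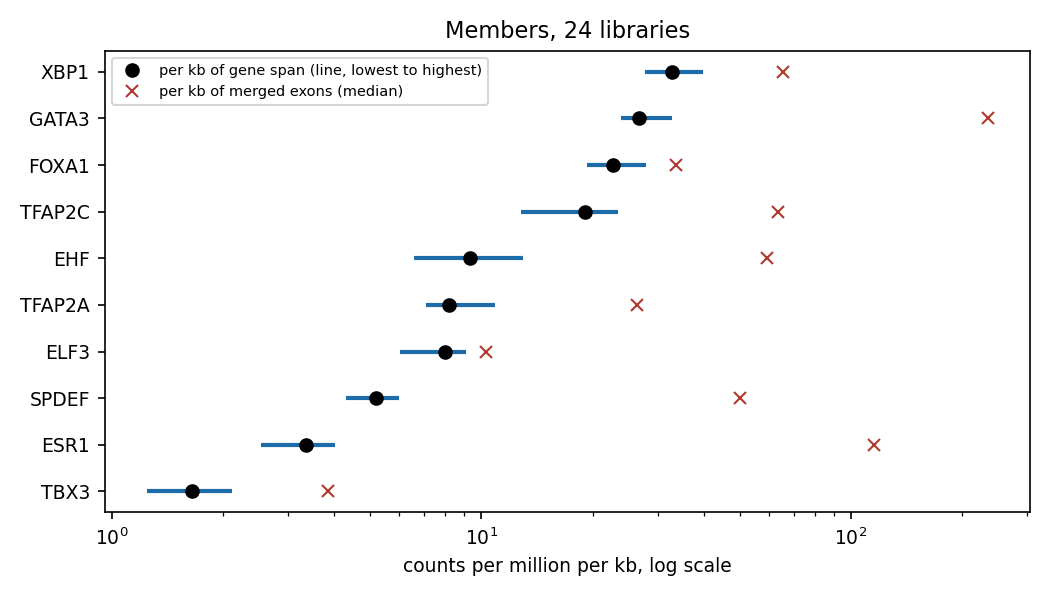
Median level of each member over 24 libraries in CPM per kb on a log axis, with points per kb of gene span, lines from the lowest to the highest library, and crosses per kb of merged exons. XBP1, GATA3, FOXA1 and TFAP2C lead by span; ESR1 moves from the ninth place to the second by exon length.

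Places in this order depend on which length is used. By merged exons XBP1 moves from place 1 to 3, GATA3 from 2 to 1 and FOXA1 from 3 to 7. TFAP2A moves from 6 to 8, ELF3 from 7 to 9 and SPDEF from 8 to 6. The largest move is that of ESR1. Its 3.36 CPM per kb spreads 1587 CPM, the largest count of any member, over a gene of 472.929 kb (chromosome 6, 151656691 to 152129619 in GENCODE 44 on hg38), and per kb of merged exons it rose to 115.6, second to GATA3 at 234.4. Family relatives lay lower. Of 13 relatives, 9 passed the filter, and the highest per span were ELF5 (an ETS factor of the luminal progenitor) at 3.02, GATA2 at 2.90 and TBX2 at 1.82, while GATA1, TFAP2D and FOXA3 were lowest at 0.00, 0.0086 and 0.046. Most of these named relatives were below the member of their own family: ELF5 below EHF, ELF3 and SPDEF, GATA2 below GATA3, and FOXA3 below FOXA1. TBX2, at 1.82 against 1.65 for TBX3, was not below its member.

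After 90 min of dTAG-13, 2 members were called, the ETS genes EHF and SPDEF, in opposite directions, and 8 were not. Neither call held when any clone was left out of this fit. EHF, the ETS factor of secretory and ductal epithelium, was higher. SPDEF, the ETS factor of goblet and luminal cells, was lower. ESR1, GATA3, FOXA1, TFAP2A, TFAP2C, XBP1, ELF3 and TBX3 did not pass the test. Over all 22326 genes tested, 0.551% were called (0.358% higher and 0.193% lower), beside 2 of 10 members. These 123 genes became 1 without Clone 28, 37 without Clone 35 and 37 without Clone 39. Leaving out single libraries gave 66 to 149, with a drop of over 1.5 times for Clone 28 DMSO replicates 3 (78) and 4 (66), Clone 28 dTAG-13 replicates 1 (75) and 2 (67), Clone 35 dTAG-13 replicate 3 (77) and Clone 39 DMSO replicate 3 (80). The median log2 fold change of the 10 was -0.022, beside -0.0017 over all genes.

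EHF (chromosome 11, 34621093 to 34663288, plus strand) had levels, for replicates 1 to 4, of 480, 426, 394 and 410 CPM in Clone 28 DMSO and 547, 467, 522 and 516 in Clone 28 dTAG-13. In Clone 35 it was at 413, 359, 373 and 366 CPM in DMSO and 436, 363, 428 and 404 in dTAG-13. In Clone 39 it was at 337, 278, 315 and 318 CPM in DMSO and 391, 309, 340 and 368 in dTAG-13. The treated library was the higher of the pair in 12 of 12 pairs, yet the 2 treatments overlapped in range within every clone. The fold change was 1.14 (log2 0.18, SE 0.042, 95% interval 0.10 to 0.27, adjusted p = 0.0469). Within replicate numbers 1 to 4 the mean change over the 3 clones was 0.16, 0.10, 0.24 and 0.23. With the pair as a block, the change was 0.18 again (SE 0.025, adjusted p = 2.1e-06).

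SPDEF (chromosome 6, 34537802 to 34556333, minus strand) was at 94.5, 99.4, 105 and 99.1 CPM in Clone 28 DMSO and at 81.6, 87.3, 89.7 and 88.5 in Clone 28 dTAG-13. In Clone 35 it was at 111, 103, 108 and 99.1 CPM in DMSO and 95.6, 98.1, 96.3 and 86.9 in dTAG-13. In Clone 39 it was at 92.3, 99.9, 96.8 and 89.4 CPM in DMSO and 92.5, 89.7, 98.6 and 79.9 in dTAG-13. The treated libraries lay wholly below the vehicle libraries in Clones 28 and 35 and overlapped them in Clone 39, where 2 of 4 pairs went up. The fold was 0.905 (log2 -0.14, SE 0.036, 95% interval -0.22 to -0.07, adjusted p = 0.0764), lower in 10 of 12 pairs. With the pair as a block it was -0.15 (SE 0.030, adjusted p = 0.0019).

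**Figure D2:**
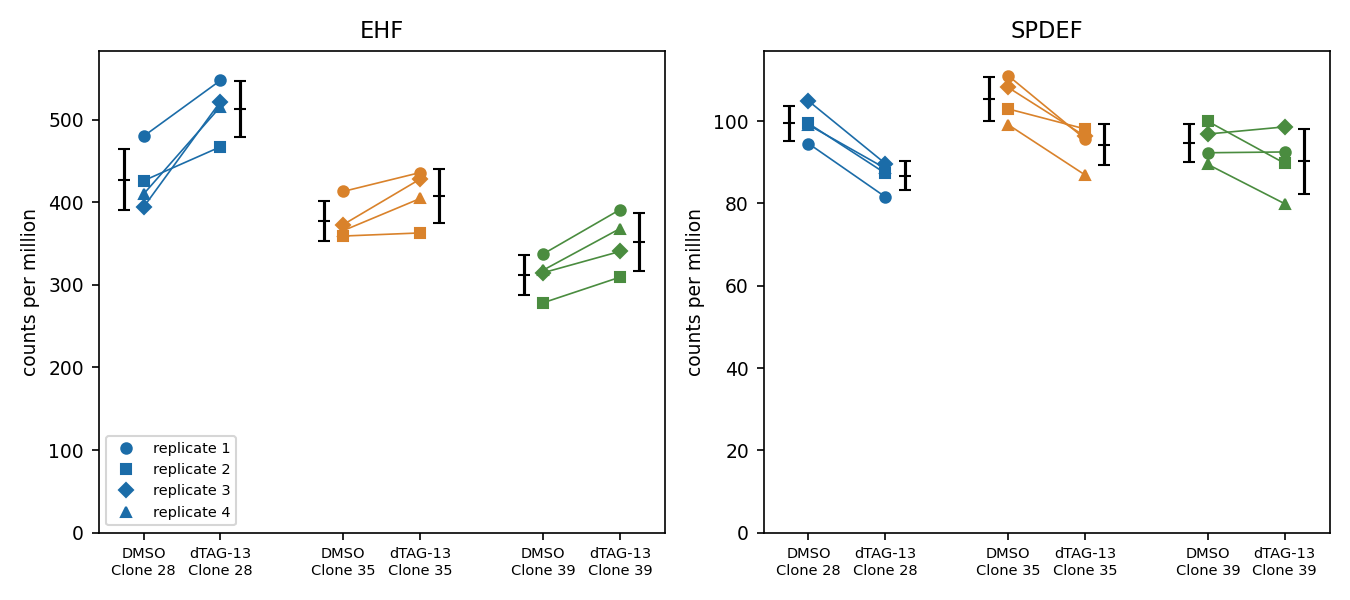
EHF and SPDEF levels in CPM for the 24 libraries, with DMSO and dTAG-13 side by side for each clone, lines joining libraries of the same replicate number, and black bars showing the group mean and SD (n = 4). EHF goes up in 12 of 12 pairs, and SPDEF goes down in 10 of 12.

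The block raised the share of all genes called to 2.33% (1.4% higher and 0.932% lower) but called no further member. Leaving out Clone 28 without the block gave a change of 0.14 for EHF and -0.12 for SPDEF, neither called, and leaving out Clone 35 or Clone 39 ended both calls as well. With the block, EHF stayed called without Clone 28 (0.14, adjusted p = 0.012), and SPDEF did not (-0.12, adjusted p = 0.192). Leaving out single libraries ended the EHF call for Clone 28 DMSO replicate 4 (adjusted p = 0.112) and Clone 28 dTAG-13 replicate 1 (adjusted p = 0.103), and ended the SPDEF call for 16 of 24 libraries.

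ESR1 had a log2 change of 0.056 (95% interval -0.070 to 0.18) and was higher in 7 of 12 pairs. With the block the change was 0.061 (interval 0.018 to 0.10, adjusted p = 0.202), which is above 0 before the adjustment over all genes but was not called. GATA3 changed by -0.047 (interval -0.11 to 0.019) and was lower in 8 of 12 pairs. Its interval with the block was -0.091 to -0.0031 (adjusted p = 0.444), also on one side of 0 and not called. FOXA1, the pioneer factor, changed by -0.034 (interval -0.13 to 0.064) with 6 pairs in each direction. A change of any size inside these intervals is not excluded for these 3 genes.

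For the AP-2 pair, TFAP2A changed by -0.065 (interval -0.14 to 0.013, lower in 8 of 12 pairs) and TFAP2C by -0.0089 (interval -0.081 to 0.063, lower in 9 of 12 pairs). With the block TFAP2A was at -0.063 (interval -0.12 to -0.0069, adjusted p = 0.403). Counting EHF, SPDEF, ESR1, GATA3 and TFAP2A, 5 members had an unadjusted p below 0.05 with the block, beside 2226 of all 22326 genes. TFAP2A in Clone 28 was at 203, 218, 198 and 209 CPM in DMSO and at 192, 188, 195 and 190 in dTAG-13, which do not overlap, though the change in that clone was not called (log2 -0.11, SE 0.068). XBP1 changed by -0.041 (interval -0.15 to 0.071). ELF3, the third ETS member, changed by 0.022 (interval -0.055 to 0.099), with 6 pairs up and 6 down. TBX3 was the least certain, at 0.0064 (interval -0.14 to 0.15).

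**Figure D3:**
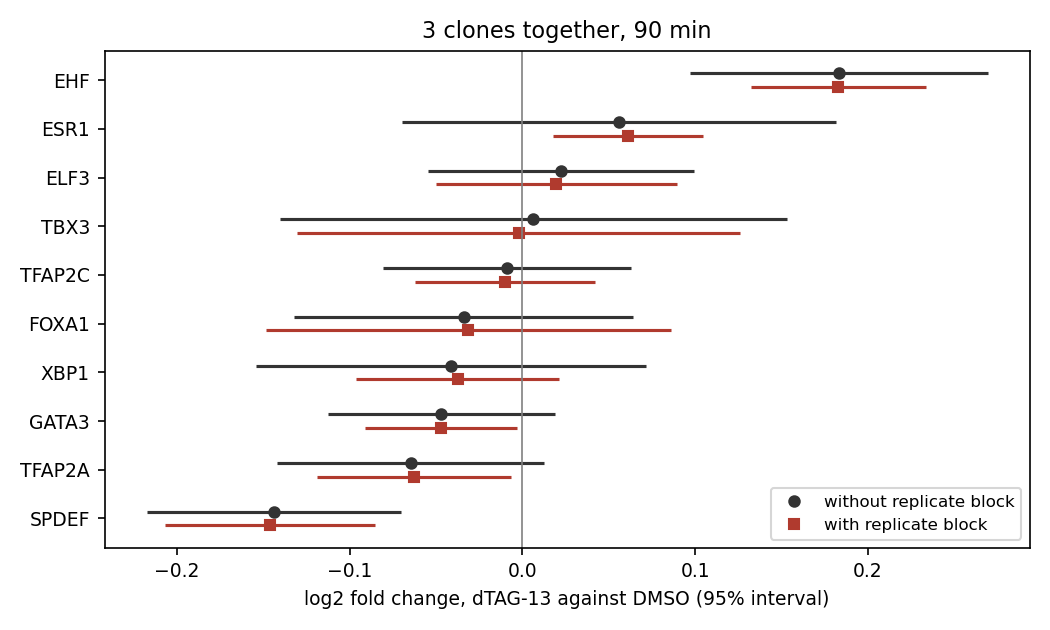
Log2 fold change of each member, dTAG-13 against DMSO with the 3 clones together, with 95% intervals from the fit without the replicate block (circles) and with it (squares). The intervals of EHF and SPDEF lie on opposite sides of 0 in both fits, those of ESR1, GATA3 and TFAP2A exclude 0 only with the block, and those of FOXA1, TFAP2C, XBP1, ELF3 and TBX3 cross 0 in both.

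Within single clones no member was called by edgeR or by DESeq2. In Clone 28 2 members had an unadjusted p below 0.05, EHF at 0.26 (SE 0.073) and SPDEF at -0.20 (SE 0.063), beside 1077 of all 22326 genes. In Clone 35 only SPDEF did, at -0.16 (SE 0.062), beside 647 genes, and in Clone 39 only EHF did, at 0.17 (SE 0.074), beside 756. After adjustment 0.0537% of genes (12) were called in Clone 28 and 0.0% in Clones 35 and 39. The 12 became 2 to 28 when single libraries were left out, lowest without Clone 28 DMSO replicate 4 or Clone 28 dTAG-13 replicate 1 and highest without Clone 28 DMSO replicate 1. They were 7 with RLE scaling, 22 with library totals and 34 by DESeq2. Without a filter on low counts they were 87, with at least 10 counts in every library 24, and at a threshold of 0.05 they were 4. With the block, EHF and SPDEF were called in Clone 28, where 1.18% of all genes were, and no member in Clone 35 (0.0941% of genes) or Clone 39 (0.0717%). No member's change differed between clones by the test of the difference itself, with 0.0% of genes called, 0 members at an unadjusted p below 0.05, and 0 members by DESeq2. With the block 0.00448% of genes were called and no member was. At an unadjusted p below 0.05 there was then 1 member, beside 1015 of all 22326 genes. EHF changed by 0.26, 0.11 and 0.17 in Clones 28, 35 and 39, and SPDEF by -0.20, -0.16 and -0.07.

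The lists around the members were counted in the same fit, to be read beside 0.551% of all genes called without the block, 2.33% with it, and 1411 of 22326 genes at an unadjusted p below 0.05 without it. Of the 9 relatives tested, 1 was called, ELF5, which was higher in 12 of 12 pairs (log2 0.14, SE 0.035, adjusted p = 0.0764). ELF5 is the neighbouring protein-coding gene of EHF on chromosome 11. Of 20 luminal marker genes, 2 were called, and both are keratins. KRT19 was lower in 11 of 12 pairs (log2 -0.13, adjusted p = 0.0348) and KRT7 in 10 of 12 (log2 -0.15, adjusted p = 0.0959). With the block, 4 of the 20 were called, adding the disulfide isomerase AGR2 (0.19) and the secreted glycoprotein STC2 (0.11) on the higher side. None of 15 unfolded protein response genes was called (0 at an unadjusted p below 0.05), the pathway that XBP1 drives. None of 16 other epithelial transcription factors was called without the block, with 5 at an unadjusted p below 0.05. With it 4 were, among them RARA (-0.11), KLF5 (-0.23) and RUNX1 (-0.081), which were lower. No basal marker of the 7 tested and no mesenchymal, endothelial or blood marker of the 6 tested was called, with 1 of each at an unadjusted p below 0.05. In bulk libraries, fewer cells that transcribe a gene and less transcription per cell cannot be told apart.

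In DMSO, 5 members were called over the 3 clones: TFAP2C, EHF, ELF3, TFAP2A and GATA3. That share is to be read against 28.5% of all genes. A fit of the 12 DMSO libraries alone, over 21254 genes, called the same 5, where 26.5% of genes were called. With the shared replicate number as a block in that fit, 9 members were called, all but TBX3, where 43.0% of genes were. Clone 39 stood apart. Against Clone 28, 2 members were higher in it (12.4% of genes were) and 4 were lower (14.3%), of 26.7% of genes called in all. Against Clone 35, 1 was higher (9.64%) and 5 were lower (12.9%), of 22.6% called. Clone 35 against Clone 28 called no member, where 5.25% of genes were called. At an unadjusted p below 0.05 there were 2 members, beside 3109 of all 22326 genes.

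TFAP2C had the largest gap. It was at 219, 209, 229 and 211 CPM in Clone 28 DMSO, 216, 185, 198 and 188 in Clone 35 DMSO and 140, 133, 142 and 140 in Clone 39 DMSO. Clone 39 lay below both other clones without overlap, with a log2 difference from Clone 28 of -0.64 (SE 0.064, adjusted p = 1.2e-09) and of -0.65, -0.65, -0.69 and -0.59 within replicate numbers 1 to 4. Its paralog moved the other way. TFAP2A was at 203, 218, 198 and 209 CPM in Clone 28 DMSO, 242, 226, 212 and 208 in Clone 35 DMSO and 289, 281, 243 and 230 in Clone 39 DMSO, higher in Clone 39 than in Clone 28 by 0.33 (SE 0.068, adjusted p = 0.00032). The ratio of TFAP2C to TFAP2A was 1.05 ± 0.086 in Clone 28 DMSO, 0.886 ± 0.049 in Clone 35 DMSO and 0.537 ± 0.069 in Clone 39 DMSO (SD, n = 4). In dTAG-13 it was 1.15 ± 0.054, 0.877 ± 0.020 and 0.552 ± 0.045, so the order of the clones was the same in both treatments.

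The ETS members ELF3 and EHF were also lower in Clone 39. ELF3 was at 81.7, 76.1, 76.9 and 77.0 CPM in Clone 28 DMSO and 58.8, 55.7, 63.6 and 64.3 in Clone 39 DMSO, a log2 difference of -0.36 (SE 0.067). EHF, at 312 ± 24.6 CPM in Clone 39 DMSO against 427 ± 37.3 in Clone 28 DMSO, differed by -0.45 (SE 0.074), which is larger than its change with dTAG-13. GATA3 was at 878, 978, 857 and 876 CPM in Clone 28 DMSO and 742, 777, 767 and 715 in Clone 39 DMSO, lower by 0.26 (SE 0.058) and not overlapping. FOXA1 was higher in Clone 39 by 0.23 (SE 0.087, adjusted p = 0.059) in that contrast, though the test over the 3 clones did not call it (adjusted p = 0.124). SPDEF was lower in Clone 39 than in Clone 35 alone (-0.15, adjusted p = 0.091). In this fit ESR1, XBP1 and TBX3 were not called between any 2 clones, while the blocked test of the DMSO libraries over the 3 clones called ESR1 and XBP1. Within replicate numbers in DMSO, ESR1 was higher in Clone 39 than in Clone 35 in 4 of 4, and XBP1 was lower in Clone 39 than in either other clone in 4 of 4. In the dTAG-13 libraries 5 members were called over the 3 clones, where 27.5% of genes were, and they were the 5 called in DMSO.

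**Figure D4:**
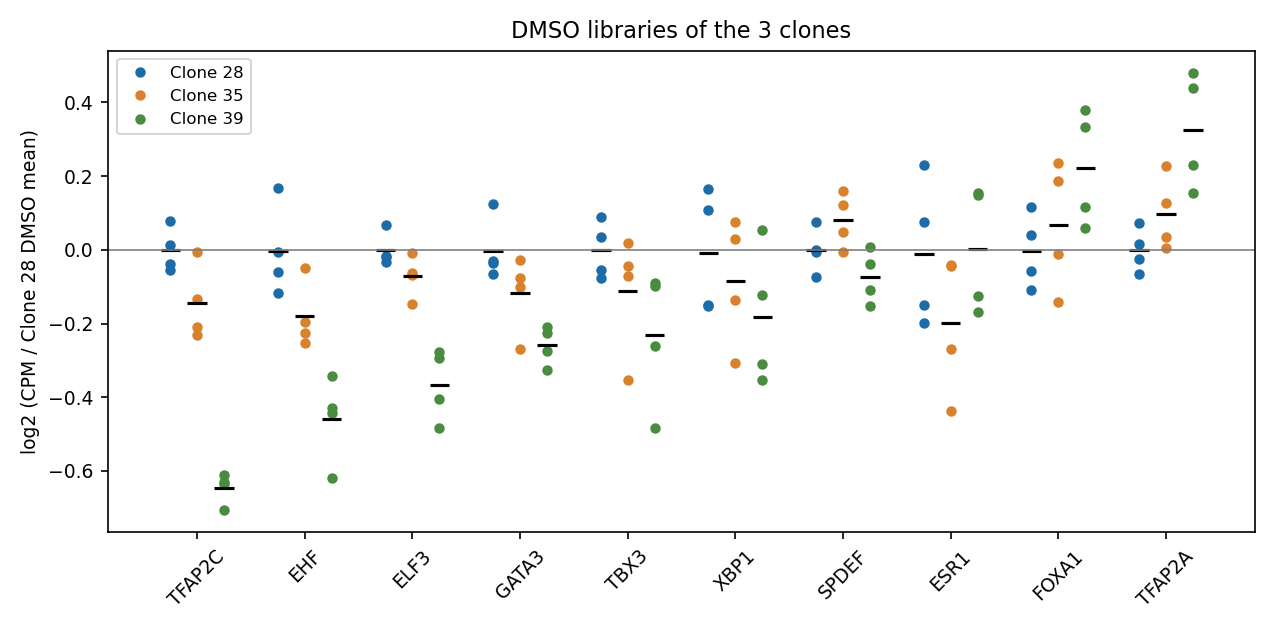
Log2 of the CPM in each DMSO library over the Clone 28 DMSO mean for each member, with points for libraries (4 per clone) and black bars for clone means. Of the 6 members called between Clones 39 and 28, Clone 39 is lowest for TFAP2C, EHF, ELF3 and GATA3 and highest for TFAP2A and FOXA1.

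Between Clones 39 and 28, where 26.7% of all genes were called (12.4% higher and 14.3% lower in Clone 39), the lists were counted in the same way. Of the relatives, 6 of 9 differed, 4 lower, among them GATA4 (-1.57), GATA6 (-0.80) and ELF5 (-0.25), and 2 higher, GATA5 (0.98) and ESR2 (0.32). Of the luminal markers 11 of 20 did, 6 higher and 5 lower. SCUBE2 (-1.86), the keratins KRT18 (-0.57) and KRT8 (-0.45) and the cadherin CDH1 (-0.33) were lower in Clone 39, and the estrogen target CA12 (0.65) was higher. Of 16 other epithelial transcription factors 10 did, 4 higher and 6 lower, with SOX9 at 0.81 and NR2F2 at -0.49. Of 15 unfolded protein response genes 2 did, HSP90B1 at -0.28 and DNAJB9 at 0.37. Of the basal markers, 5 of 7 tested did, 3 higher and 2 lower, and of the mesenchymal, endothelial and blood markers 2 of 6 did, 1 each way. The part of these marker levels in the clone differences of the members was not tested.

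Within the day of the experiment each replicate had its own collection time, and the levels of most members varied with the replicate number. After clone and treatment, 8 of 10 members were called between the 4 numbers, all but ELF3 and FOXA1, where 37.4% of all genes were called. Leaving out single libraries gave 5 to 8 members. That a number means the same time in every clone is not in the labels. XBP1 was highest in replicate 1 in 6 of 6 groups and lowest in replicate 4 in 5 of 6. Its mean over the 6 groups was 222 ± 11.6, 205 ± 18.6, 194 ± 10.6 and 178 ± 8.61 CPM for numbers 1 to 4. ESR1 was highest in replicate 2 in 5 of 6 groups and lowest in replicate 4 in 5 of 6, with means of 1697 ± 92.4, 1738 ± 140, 1504 ± 118 and 1411 ± 150 CPM. EHF was highest in replicate 1 in 6 of 6 groups and lowest in replicate 2 in 5 of 6, with means of 434 ± 72.9, 367 ± 70.4, 395 ± 73.6 and 397 ± 66.9 CPM (SD, n = 6 groups). TFAP2C was also lowest in replicate 2 in 5 of 6 groups.

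**Figure D5:**
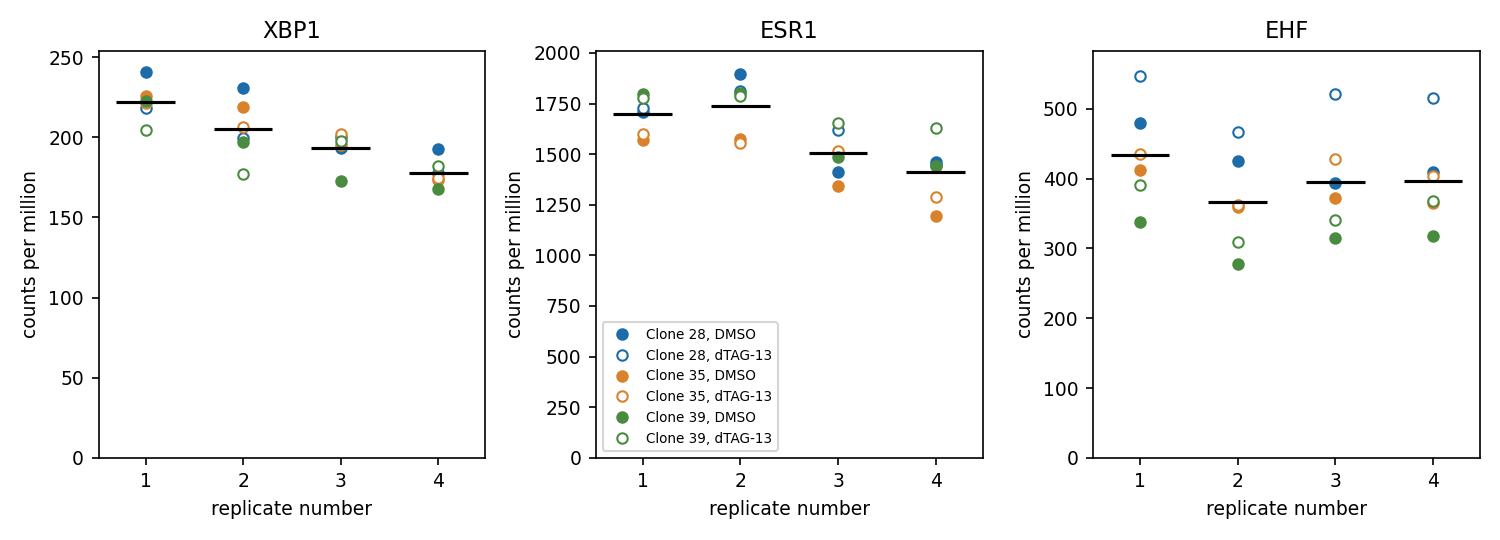
XBP1, ESR1 and EHF levels in CPM by replicate number, with filled points for DMSO, open points for dTAG-13, colours for clones and black bars for the mean of 6 libraries. XBP1 and ESR1 are lower in replicates 3 and 4 than in 1 and 2, and EHF is highest in replicate 1.

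Replicates 3 and 4 were set against 1 and 2 after this pattern had been seen. Over all genes 40.9% were called, 20.2% lower there and 20.7% higher. Of the members 4 were called lower and none higher: ESR1 (-0.24, SE 0.026), XBP1 (-0.20, SE 0.028), TFAP2A (-0.09, SE 0.029) and TBX3 (-0.13, SE 0.063). ESR1 and XBP1 were lower in replicates 3 and 4 in 6 of 6 groups, TFAP2A and TBX3 in 4 of 6. Of the uncalled members, TFAP2C, SPDEF and ELF3 were lower in 4 of 6, GATA3 and FOXA1 in 3 and EHF in 2. The difference for ESR1 is larger than the change of any member with dTAG-13 over the 3 clones together. Of 20 luminal markers, 11 were lower and none higher. The 5 with the smallest p were the estrogen receptor targets PRLR (-0.27) and PGR (-0.31), with AGR2 (-0.20), STC2 (-0.21) and the keratin KRT18 (-0.15). The estrogen target CA12 was not called. Of the relatives 3 were higher and 1 lower of 9 tested, of the other epithelial transcription factors 5 were higher and 7 lower of 16, of the basal markers 2 each way of 7, and of the mesenchymal, endothelial and blood markers 1 each way of 6. Of 15 unfolded protein response genes 2 were higher and 7 lower, with HSP90B1, an endoplasmic reticulum chaperone, at -0.19 and ERN1, the kinase that splices XBP1 mRNA, at 0.23.

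Several members share their locus with another transcript. The table kept the strands apart, as genes nested inside a gene of the opposite strand exceeded it in 18.6% of 1504 pairs, against 0.747% of 1741 pairs on the same strand. TFAP2A contains TFAP2A-AS1 and TFAP2A-AS2, with median counts at 22.6% and 5.16% of its own. GATA3 contains GATA3-AS1 (5.02%), ELF3 overlaps ELF3-AS1 (15.8%), TBX3 overlaps TBX3-AS1 (60.6%) and FOXA1 overlaps the first 431 bases of TTC6 (277.4%), a gene of 445814 bases on the other strand. ELF3 also contains a noncoding gene on its own strand with a count of 21.5% of its own, GATA3 contains another (2.66%) and ESR1 another (0.259%), and for these the reads of both genes cannot be told apart. EHF, SPDEF, TFAP2C and XBP1 overlap no annotated gene.

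The genes whose levels most resembled those of the 3 core factors were listed over 24 libraries, among 11711 to 11713 genes with a mean count of 100 or more, by Pearson correlation of log2 CPM. They were THSD4, IMMP2L and MECOM for ESR1 (r = 0.918, 0.916 and 0.901), GABRG3, AKAP10 and HEY2 for GATA3 (0.847, 0.825 and 0.825) and HOXB-AS3, PHF20 and AFG1L for FOXA1 (0.812, 0.782 and 0.764). These libraries share clones, collection times and treatments, so the values describe a common pattern and carry no test.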

How the data were processed

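PRO-seq was done on T47D dTAG-TRPS1 Clones 28, 35 and 39, treated with DMSO or dTAG-13 for 90 min, 4 replicates per group. The deposited values are raw counts of reads per gene: the authors trimmed adapters (cutadapt 1.8.1, per the submitters' processing notes), collapsed duplicates by unique molecular identifier, removed ribosomal DNA reads, aligned with Bowtie2 2.4.4 to hg38, handled the alignments with SAMtools 1.9 and counted over genes. The annotation and strand setting of the counting are not given in the sources used here, and genes were placed by matching identifiers to GENCODE 44 (60463 of 60605). Totals of 3226718 to 9575803 counts limit precision for weak genes.

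Genes were kept by filterByExpr (minimum count 10; 22326 genes), scaled by TMM and tested with the edgeR 4.0.16 quasi-likelihood test (R 4.3.3), with Benjamini-Hochberg adjustment over all genes tested and a threshold of 0.1. CPM use TMM-scaled totals, and log2 CPM a prior count of 2. DESeq2 1.42.0, other scalings and filters, left-out libraries and clones, and a replicate block were alternatives. On simulated counts for the comparison of dTAG-13 with DMSO over the 3 clones, 28.5% of 200 genes changed by 0.25 on the log2 scale were recovered among 22116 genes, and 75.0% of those changed by 0.5 among 22103. The treatment protocol in the labels sets replicates apart by time and has both treatments harvested at once, and deviations of paired libraries from the group means correlated at 0.093 to 0.318 (mean 0.185, above 0.1 in 11 of 12 pairs). No 2 libraries of a group agreed within sampling noise (chi-square per degree of freedom 1.64 to 13.6), so none was treated as a repeat deposit of another. Cells were plated per sample, but the replicates of a group share a clone and a day, so p-values measure the spread between such samples. No value column was left unused. Named genes were all 10 members and, of each other list, up to 5 called genes with the smallest p per comparison, those highest and lowest per length, and the 3 most alike to ESR1, GATA3 and FOXA1. The members and lists were chosen with earlier results of these data known. The values of 1 gene of these lists are not reported here.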

Additional observations from a re-analysis of the deposited data

Results flagged for a closer look

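Of 60 sets of 4 libraries (10 members in 6 groups), 2 had a library far from the other 3 by Dixon's test at the 95% level, where chance gives about 3. Both were in Clone 28 DMSO. GATA3 was at 978 CPM in replicate 2, while the other 3 libraries were at 857 to 878. ELF3 was at 81.7 CPM in replicate 1, while the others were at 76.1 to 77.0.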

How the results depend on the processing

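With 2 members called after dTAG-13 over the 3 clones, 1 (EHF) was called under each of 3 alternatives. These were no filter on low counts (0.369% of all genes called), a threshold of 0.05 (0.287%), and leaving out Clone 28 with the replicate block (0.810%). None (0) was called without Clone 28 (0.0046% of genes), Clone 35 (0.171%) or Clone 39 (0.169%) and no block. Leaving out each library gave 0 to 2. Over 37 alternatives, EHF ranged from 0.14 to 0.22 (adjusted p 2.1e-06 to 1.00) and lost its call under 5, and SPDEF from -0.18 to -0.12 (adjusted p 0.0019 to 1.00) and lost it under 22. In Clone 28, 0 became 1 without a filter and 2 with the block. The 5 called between clones in DMSO were the same 5 in the DMSO libraries alone and 9 there with the block. The 8 called between replicate numbers became 5 without a filter, without Clone 35 or without Clone 39. The share of all genes called between replicate numbers fell as well, from 37.4% to 14.9%, 28.1% and 27.7% in that order. Over left-out libraries the members called were 5 to 8. The cause was not tested. The block could not be used for replicate numbers, since the number was the term tested. Otherwise the block changed no count of members called by over 1.5 times. The counts stayed within 1.5 times under RLE scaling, library totals, a stricter filter and DESeq2. Near 0, signs turned in uncalled genes. TBX3 (0.0064) was -0.0022 with the block, -0.042 and -0.0095 without Clones 28 and 39, -0.054 and -0.014 with the block as well, and -0.035 to 0.037 over left-out libraries. TFAP2C was 0.0036 without Clone 35 (0.0033 with the block) and -0.024 to 0.0064 over left-out libraries. ELF3 was -0.0053 without Clone 39 (-0.0066 with the block). The effect of depth on these counts was not tested.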
